A study of Homo sapiens with 6 samples.

Results

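The comparison set both MKN45 lines labelled resistant to T cell bispecific antibodies against sensitive MKN45, and looked for genes that moved the same way in both. All 6 libraries of the series entered it, 4 from resistant cells and 2 from MKN45. MKN45 is an established human gastric cancer line. HER2R is labelled resistant to HER2-TCB, an antibody against the receptor encoded by ERBB2, and comes from cells named MKN45-HER2. CEAR is labelled resistant to CEACAM5-TCB and comes from cells named MKN45-CEAR. No treatment is listed for any library, the medium was DMEM/F-12 with serum for all, and it is not stated whether the name MKN45-HER2 means HER2R or an engineered parent of it. Each resistant line is 1 line, so what is common to both rests on 2 lines and the same MKN45 control. The sample titles do not call that MKN45 culture the parent of either. RNA from an MKN45-HER2 culture before selection was not analysed here. Nothing states that both libraries of a line were grown separately, and p-values therefore measure only the spread between these libraries, which may be technical.

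A gene was counted as shared when 3 conditions held. The mean of both line terms had to differ from MKN45 at an adjusted p under 0.05 in edgeR's quasi-likelihood test (the joint contrast, which uses the MKN45 libraries once), both lines had to move in the same direction, and all 4 resistant libraries had to lie above, or all below, both MKN45 libraries. Of 29744 gene symbols 14958 had enough counts to be tested. The joint contrast called 401 genes higher (2.68%) and 666 lower (4.45%), 7.13% of tested genes in all. Of these, 363 higher genes (2.43% of those tested) and 600 lower genes (4.01%) met all conditions, 963 shared genes in all. These percentages are the background against which counts of shared genes from this fit should be read. Other fits have their own background. It was higher with the library number as a term and lower in every fit with a library left out. Non-overlap alone was common, with all 4 resistant libraries above MKN45 in 10.9% of genes and below it in 12.7%. An exact permutation test of 4 libraries against 2 cannot give a two-sided p under 0.0667 for any single gene, so each call leans on the spread that edgeR pools over genes.

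A T cell bispecific antibody ties a tumour antigen to CD3 on T cells, and so directs a T cell to kill without the peptide and MHC that a T cell receptor normally needs. The activated T cell releases perforin, granzymes and interferon gamma. Interferon gamma signals through IFNGR1, IFNGR2, JAK1 and JAK2 to raise IRF1, NLRC5 and with them the MHC class I genes and the TAP transporter and tapasin (TAPBP), which load peptides onto class I molecules. Resistant cells can lose the antigen or answer interferon gamma less.

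The epithelial markers EPCAM and CDH1 were expressed in all 3 lines. EPCAM stood at 526 and 641 CPM in MKN45, 749.9 and 873 CPM in HER2R, and 453 and 486 CPM in CEAR, and CDH1, which encodes E-cadherin, at 542 and 655 CPM in MKN45, 398 and 403 CPM in HER2R, and 584 and 637 CPM in CEAR. Neither passed the joint contrast, at 0.08 (edgeR adjusted p = 0.796) and -0.28 (edgeR adjusted p = 0.274). Of 15 markers of T, NK and B cells, 14 were under 1 CPM in every library and CD3D had no count; the other was the kinase gene LCK. Their sum was 12.4 to 24.8 CPM in MKN45, 76.5 to 86.7 CPM in HER2R and 14.7 to 22.7 CPM in CEAR. Of 13 fibroblast and endothelial markers 12 were under 1 CPM in every library, with a sum of 1.07 to 1.90 CPM in MKN45, 3.77 to 7.92 CPM in HER2R and 1.17 to 1.83 CPM in CEAR, and DCN had no count. Of 10 myeloid markers 8 were under 1 CPM in every library, and the sum, 910.5 to 1144 CPM in MKN45, 365 to 404 CPM in HER2R and 830 to 1198 CPM in CEAR, was nearly all LYZ, a lysozyme gene also made by gastric epithelium. No tested gene of these 3 lists was shared, and their part in the results was not tested.

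By the change in the line where it rose least, the largest shared gain was in CD74 (chromosome 5, 150401637 to 150412929 on GRCh38), the invariant chain of MHC class II and a receptor for the cytokine MIF. It was at 0 and 0.0455 CPM in MKN45, 8.66 and 19.1 CPM in HER2R, and 16.8 and 32.3 CPM in CEAR. The MKN45 libraries held 2 counts of CD74 between them, and the ratio of summed counts was 984-fold with a 95% counting interval of 272 to 8129. All 4 resistant libraries were high and the lines did not differ detectably from each other (edgeR adjusted p = 0.231 for HER2R against CEAR). CD74 was the one shared gene of the 8 tested on the MHC class II list, where 0 fell.

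SHISA2, which encodes a protein that holds back maturation of WNT and FGF receptors, was at 0.0531 and 0.0227 CPM in MKN45, 13.5 and 6.45 CPM in HER2R, and 9.28 and 8.83 CPM in CEAR, a joint log2 fold change of 7.80 (SE 0.62, edgeR adjusted p = 0.0022). FGL2, a fibrinogen-like protein described as both a prothrombinase and an immune suppressor, was at 0.0531 and 0.114 CPM in MKN45, 3.08 and 2.58 CPM in HER2R, and 11.8 and 23.7 CPM in CEAR, a change of 6.42 (SE 0.61, edgeR adjusted p = 0.00408). Its gain was larger in CEAR (edgeR adjusted p = 0.0119 for HER2R against CEAR). COL12A1, a fibril-associated collagen, was at 1.05 and 0.637 CPM in MKN45, 134 and 50.2 CPM in HER2R, and 8.22 and 12.4 CPM in CEAR, a change of 5.16 (SE 0.577, edgeR adjusted p = 0.00783), and here HER2R gained more (edgeR adjusted p = 0.0151). In none of these 3 genes did a resistant library come near the MKN45 range.

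TRIM47, a ubiquitin ligase, was at 1.84 and 2.55 CPM in MKN45, 23.1 and 29.4 CPM in HER2R, and 32.9 and 41.3 CPM in CEAR and changed by 3.84 (SE 0.246, edgeR adjusted p = 0.00223). NEBL, an actin-binding protein, was at 6.75 and 9.8 CPM in MKN45, 97.6 and 69.8 CPM in HER2R, and 87.2 and 87.7 CPM in CEAR and changed by 3.37 (SE 0.237, edgeR adjusted p = 0.00233). HER2R and CEAR were not called different in either (edgeR adjusted p = 0.174 and 0.875). PROX1, a homeobox factor of lymphatic and progenitor cells, went from 0.213 and 0.273 CPM in MKN45 to between 3.26 and 5.51 CPM in the resistant libraries, a change of 4.30 (SE 0.427, edgeR adjusted p = 0.00525). DOC2B, a calcium sensor of vesicle fusion, had no count in MKN45, and the resistant libraries together were at least 174-fold above a floor of 3 counts, but they ranged from 0.361 CPM in CEAR to 14 CPM in HER2R. The other genes with the largest gains in the line where they rose least were MYEF2 (5.79), DTX3 (5.22), PLEKHH2 (4.70), NAGS (4.26), MTSS1 (4.20), FAM131A (4.02) and HTRA3 (3.93), each as the joint log2 fold change. Only shared genes with a mean of 5 CPM or more in at least 1 line were ranked. The calls of DOC2B, PLEKHH2 and MTSS1 were each lost in some fits that left out a single library (leave-out fits). Such a fit has fewer degrees of freedom, so here and below a lost call does not by itself single out the library removed. The 12 other genes of this group stayed called in all 6 such fits.

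GAP43 (chromosome 3, 115623324 to 115721490), a growth-cone protein of neurons, was at 66.8 and 35.4 CPM in MKN45 and had no count in any resistant library, at least 2908-fold lower against a floor of 3 counts over the group. A1CF, the RNA-binding partner of the APOBEC1 editing enzyme, was at 4.32 and 11.7 CPM in MKN45 and had no count in the other 4, at least 414-fold lower. SOSTDC1, a secreted antagonist of BMP and WNT ligands, was at 23.4 and 17.7 CPM in MKN45 and had 1 count over the 4 resistant libraries. In all, 8 shared genes had no count in any resistant library.

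WNT16, a WNT ligand, was at 19.6 and 23.7 CPM in MKN45, 0.306 and 0.306 CPM in HER2R, and 0.169 and 0.135 CPM in CEAR, a joint log2 fold change of -6.63 (SE 0.243, edgeR adjusted p = 0.000372), with the libraries of each group close together. SCGN, a calcium-binding protein of endocrine cells, was at 4.2 and 8.32 CPM in MKN45, 0 and 0.0255 CPM in HER2R, and 0.0482 and 0.225 CPM in CEAR, a change of -7.05 (SE 0.633, edgeR adjusted p = 0.00333). ZNF462, a zinc finger gene, was at 48.7 and 45.4 CPM in MKN45, 2.24 and 3.98 CPM in HER2R, and 0 and 0.0449 CPM in CEAR and fell by 7.37 on the log2 scale (SE 0.35, edgeR adjusted p = 0.000315), further in CEAR than in HER2R (edgeR adjusted p = 0.00295). The other genes with the largest losses in the line where they fell least were PTCHD4 (-6.27), CEACAM6, ALDH1A1 (-8.64), MYO7B (-4.73), GSTA1 (-5.24), CDH17 (-4.98), KCNH8 (-4.71) and LEF1 (-4.12). This ranking took only shared genes with a mean of 5 CPM or more in at least 1 line. Below that level, FEZF1 and PKIA, each at a mean of 1.52 CPM in MKN45, also had no count in any resistant library. MYO7B and CDH17 encode a brush-border myosin and the liver-intestine cadherin, and LEF1 a nuclear effector of WNT signalling. The edgeR adjusted p passed 0.05 on removal of 1 library for A1CF (0.0521 lacking HER2R library 1, 0.052 lacking HER2R library 2), MYO7B (0.0644 lacking HER2R library 1, 0.0606 lacking HER2R library 2) and GSTA1 (0.13 lacking MKN45 library 2, 0.133 lacking HER2R library 1, 0.117 lacking HER2R library 2, 0.0539 lacking CEAR library 1). It was likewise so for CDH17 (0.0789 lacking MKN45 library 2, 0.0901 lacking HER2R library 1, 0.0703 lacking HER2R library 2) and LEF1 (0.060 lacking MKN45 library 2, 0.0737 lacking HER2R library 1, 0.0598 lacking HER2R library 2). GSTA1 moved to -3.16 at its smallest in these fits.

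**Figure D1:**
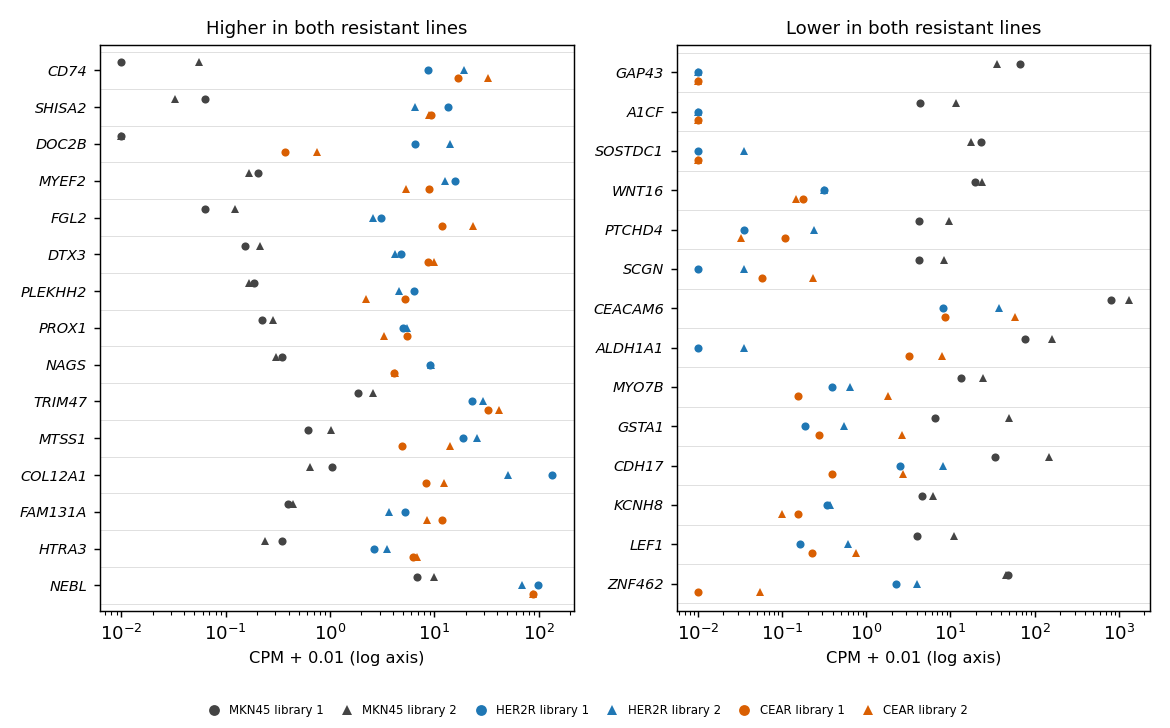
CPM plus 0.01 (log axis) of the genes with the largest shared changes, 1 point per library, circles for library 1 and triangles for library 2, with higher genes on the left and lower genes on the right. In every row the 2 MKN45 points (grey) lie apart from the 4 resistant points, as the definition of a shared gene requires. Points at the left edge are libraries with no count. Genes under 5 CPM on average in every line were not ranked.

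The promoter windows of 6 of these genes are shown, the 3 higher and 3 lower genes with the largest change in the line that moved least among those with a single listed window. Each window is the RefSeq sequence on GRCh38.p14 from 250 bases before to 50 after the annotated start, 5′ to 3′ on the gene's strand. Capitals mark matches on either strand to any of 7 motifs. These were the hypoxia response core ACGTG, the AP-1 element TGANTCA and the TEAD element GGAATG. The gamma-activated site, bound by STAT factors, was searched as TTCNNNGAA and the cyclic AMP response element as TGACGTCA. A TATA box was searched as TATAAA, and the interferon-stimulated response element by its core. CD74 (chr5:150412861-150413160, minus strand) and SHISA2 (chr13:26051967-26052266, minus strand) held none of the 7. FGL2 (chr7:77199770-77200069, minus strand) held an AP-1 match starting at -49. GAP43 (chr3:115623260-115623559, plus strand) held a gamma-activated site at -187. A1CF (chr10:50885578-50885877, minus strand) held overlapping TATA matches at -207 and -205 and a hypoxia core at -15, and WNT16 (chr7:121328750-121329049, plus strand) a TEAD match at 20. Positions count from the start site.
CD74: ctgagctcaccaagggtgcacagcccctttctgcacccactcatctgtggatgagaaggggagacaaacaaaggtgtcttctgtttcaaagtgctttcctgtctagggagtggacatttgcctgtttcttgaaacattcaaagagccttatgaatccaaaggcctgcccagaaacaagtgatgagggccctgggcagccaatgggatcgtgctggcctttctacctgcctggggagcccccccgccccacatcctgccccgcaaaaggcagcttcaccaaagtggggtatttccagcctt
SHISA2: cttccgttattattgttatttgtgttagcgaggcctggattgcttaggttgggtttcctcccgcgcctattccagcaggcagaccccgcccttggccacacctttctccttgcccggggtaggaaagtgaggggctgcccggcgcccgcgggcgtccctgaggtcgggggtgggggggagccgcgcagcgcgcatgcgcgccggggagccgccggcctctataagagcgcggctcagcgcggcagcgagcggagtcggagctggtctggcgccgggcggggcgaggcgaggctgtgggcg
FGL2: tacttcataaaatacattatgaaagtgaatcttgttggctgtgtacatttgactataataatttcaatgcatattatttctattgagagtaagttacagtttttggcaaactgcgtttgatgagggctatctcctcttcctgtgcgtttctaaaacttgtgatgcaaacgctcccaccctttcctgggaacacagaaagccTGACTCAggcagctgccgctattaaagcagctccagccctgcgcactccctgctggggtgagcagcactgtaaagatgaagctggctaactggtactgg
GAP43: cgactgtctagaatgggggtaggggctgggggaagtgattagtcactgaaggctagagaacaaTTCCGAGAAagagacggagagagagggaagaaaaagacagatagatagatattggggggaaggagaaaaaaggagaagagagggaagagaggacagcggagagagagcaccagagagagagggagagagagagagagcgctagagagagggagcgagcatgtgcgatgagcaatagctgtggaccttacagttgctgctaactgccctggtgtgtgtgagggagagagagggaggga
A1CF: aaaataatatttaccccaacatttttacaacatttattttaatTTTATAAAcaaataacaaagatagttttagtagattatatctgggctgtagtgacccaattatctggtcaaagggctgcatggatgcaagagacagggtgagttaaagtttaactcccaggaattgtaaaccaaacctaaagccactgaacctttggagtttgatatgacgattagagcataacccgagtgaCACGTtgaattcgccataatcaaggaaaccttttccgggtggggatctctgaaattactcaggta
WNT16: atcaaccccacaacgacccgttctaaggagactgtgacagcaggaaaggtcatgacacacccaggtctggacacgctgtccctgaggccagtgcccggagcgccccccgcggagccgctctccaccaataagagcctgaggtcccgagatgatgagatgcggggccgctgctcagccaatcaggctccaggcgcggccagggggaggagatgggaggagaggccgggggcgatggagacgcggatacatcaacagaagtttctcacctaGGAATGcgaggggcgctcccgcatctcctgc

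The same motifs were counted over the 7989 tested genes with exactly 1 listed window, which included 173 shared higher and 320 shared lower genes. A gamma-activated site match was in 12.1% of higher, 8.44% of lower and 6.60% of all windows. An AP-1 match was in 4.62%, 2.19% and 4.33%, a hypoxia core in 23.1%, 27.2% and 27.3%, and an interferon-stimulated response element core in 2.31%, 2.50% and 2.83%. TEAD matches were in 11.6%, 11.9% and 10.6%, TATA boxes in 8.67%, 7.19% and 5.80%, and cyclic AMP response elements in 2.31%, 1.88% and 3.53%. CpG dinucleotides were depleted, with an observed to expected ratio under 0.6, in 16.2% of the higher and 27.8% of the lower windows, against 15.3% of all. CD74, FGL2, GAP43 and A1CF had ratios of 0.14, 0.34, 0.51 and 0.50, and SHISA2 and WNT16 of 0.96 and 0.66. These are descriptions of letters with no test, and a match is not a bound site.

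The 2 lines had similar median changes over the shared genes, which were chosen to move the same way in both. The median joint log2 fold change was 1.35 over the higher genes (1.47 in HER2R and 1.10 in CEAR) and -1.001 over the lower ones (-0.99 and -1.02), against -0.003 over all tested genes. More than 2-fold in both lines were 179 higher and 206 lower genes, and more than 4-fold 70 and 103. Since both fold changes share the MKN45 libraries, likeness between them is partly built in, and HER2R was therefore compared with CEAR directly, which uses no MKN45 level. That contrast called 295 of the 963 shared genes different between the lines, a larger share than the 14.1% of all tested genes (2105 of 14958). It rests on the same spread estimate by which the shared genes were called, so the shares are not strictly comparable. Of these 295 genes, HER2R had moved further in 105 of the 136 higher and 70 of the 159 lower ones, CEAR in the other 31 and 89.

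A stricter question is whether a gene differs from MKN45 in both lines at once. By the larger of the 2 line p-values, adjusted over all tested genes, 48 genes were higher in each line (0.321% of those tested) and 37 lower (0.247%). Against MKN45 alone, 9.74% of genes were called in HER2R and 6.19% in CEAR. With each line's test adjusted on its own, a looser criterion than the larger p-value, 315 genes were called in both lines with the same sign. Another 35 were called in both lines with opposite signs. When all 4 resistant libraries were treated as 1 group, so that the difference between the lines counts as spread, 35 higher and 55 lower genes were called, all of them among the 963. Leaving out 1 library at a time kept 153 of the 963 called in all 6 fits, 62 higher and 91 lower, while 378 were called in none. The number of shared genes fell to 352 and 236 without MKN45 library 1 or 2, to 231 and 236 without HER2R library 1 or 2, and to 453 and 522 without CEAR library 1 or 2. Of the 42 gene lists with a shared gene, 38 had a shared count over 1.5 times smaller in at least 1 of these fits. A fit with the library number as a term (the replicate block) called 1072 higher and 1430 lower shared genes (7.17% and 9.56% of those tested), including all 963. Those that met the line, group and leave-out criteria together were 26 higher and 30 lower genes.

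**Figure D2:**
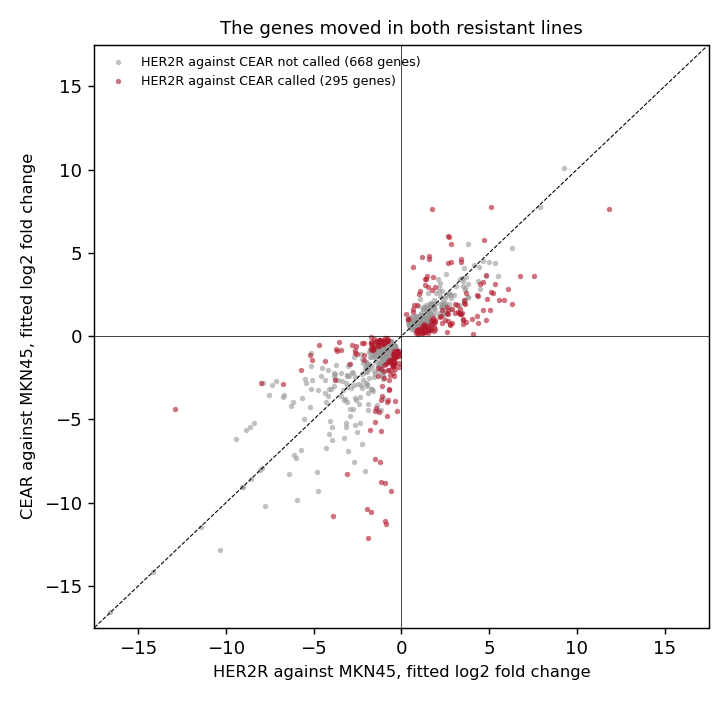
Fitted log2 fold change against MKN45 in HER2R (x axis) and in CEAR (y axis) of the 963 shared genes, 1 point per gene, with the dashed line where both are equal. Both axes share the MKN45 libraries, so only the distance from the dashed line is independent of them; the 295 red genes differ between HER2R and CEAR, and values of genes without counts depend on the fit's prior count.

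Among abundant shared genes (by mean CPM, changed at least 2-fold), the gains were PRSS23, AKAP12, ERRFI1, SYNE2, PLOD2 and JUN. PRSS23, a secreted serine protease, was at 29.7 and 37.7 CPM in MKN45, 332 and 267 CPM in HER2R, and 139 and 109 CPM in CEAR, a joint log2 fold change of 2.52 (SE 0.196, edgeR adjusted p = 0.0028). AKAP12, a scaffold of protein kinases A and C, was at 61 and 34.1 CPM in MKN45, 454 and 619.8 CPM in HER2R, and 98.1 and 86.7 CPM in CEAR, 2.23 (SE 0.28, edgeR adjusted p = 0.0107), a gain mostly of HER2R (edgeR adjusted p = 0.00788 for HER2R against CEAR). JUN, the AP-1 subunit, was at 84.8 and 84.6 CPM in MKN45, 212 and 242 CPM in HER2R, and 168 and 194 CPM in CEAR, 1.26 (SE 0.126, edgeR adjusted p = 0.00537). By the definition of a shared gene, the resistant libraries did not overlap MKN45 in any of them. The test of HER2R against CEAR called PRSS23, AKAP12 and PLOD2 but not ERRFI1, SYNE2 and JUN. The abundant losses were CEACAM6, LAMP1, TTYH3, PPP1R1B, MALL and GPX2. LAMP1, the lysosomal membrane protein that also marks T cell degranulation, was at 413 and 488 CPM in MKN45, 206 and 204 CPM in HER2R, and 239.8 and 252 CPM in CEAR, -1.01 (SE 0.116, edgeR adjusted p = 0.00851). GPX2, the epithelial glutathione peroxidase, was at 411 and 427 CPM in MKN45, 148 and 224 CPM in HER2R, and 96.5 and 143 CPM in CEAR, -1.49 (SE 0.212, edgeR adjusted p = 0.0152). The calls of SYNE2, PLOD2, TTYH3, PPP1R1B, MALL and GPX2 were each lost in some leave-out fit. No leave-out fit gave a call, by edgeR adjusted p, for ERRFI1 (0.0504 to 0.155).

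The antigens did not move together. CEACAM6 is a cell surface relative of CEACAM5. It was at 801 and 1325 CPM in MKN45, 8.23 and 37.5 CPM in HER2R, and 8.7 and 58.2 CPM in CEAR. CEACAM6 fell by 5.26 on the log2 scale (SE 0.82, edgeR adjusted p = 0.0196), with -5.54 in HER2R and -4.99 in CEAR. CEACAM5 was called in the joint contrast at -3.81 (edgeR adjusted p = 0.0298) but is not a shared gene, since it was -0.05 in HER2R and -7.56 in CEAR. Its call was lost lacking MKN45 library 1 or 2 (edgeR adjusted p = 0.0509 and 0.125) or HER2R library 1 or 2 (0.119 and 0.0927). ERBB2 was at 103 and 126 CPM in MKN45, 88.2 and 78.8 CPM in HER2R, and 75.6 and 109 CPM in CEAR and its change of -0.38 (edgeR adjusted p = 0.248) was not called. CEACAM6 was the one shared gene of the 6 tested on the antigen list. Reads can be shared between CEACAM5 and CEACAM6, whose sequences are alike. With 1 library removed, edgeR no longer called CEACAM6 (0.0724 lacking MKN45 library 2, 0.0753 lacking HER2R library 1, 0.0572 lacking HER2R library 2).

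The MHC class I presentation list leaned downward in both lines. Of 24 tested genes 0 were shared higher and 3 shared lower, NLRC5, TAP1 and TAPBP, with 12 of 24 having all resistant libraries below MKN45 and 1 having them above. The list's median joint log2 fold change was -0.75, against -0.003 for all tested genes. With 1 library left out, the median of the class I list ran from -0.87 (lacking CEAR library 2) to -0.45 (lacking MKN45 library 2), with 0 shared higher and 2 to 6 shared lower genes. NLRC5, the transactivator of class I genes, was at 35.8 and 33.9 CPM in MKN45, 10.8 and 9.39 CPM in HER2R, and 11.5 and 17.2 CPM in CEAR, -1.53 (SE 0.185, edgeR adjusted p = 0.00925). TAPBP was at 238 and 231 CPM in MKN45, 107 and 106 CPM in HER2R, and 125 and 143 CPM in CEAR, -0.97 (SE 0.105, edgeR adjusted p = 0.00707). TAP1 was at 71.2 and 67.4 CPM in MKN45, 33.4 and 44.6 CPM in HER2R, and 35.1 and 36.5 CPM in CEAR, -0.89 (SE 0.141, edgeR adjusted p = 0.0204). HER2R and CEAR were not called different in any of these 3 (edgeR adjusted p = 0.183, 0.124 and 0.655). HLA-B was at 38.4 and 115 CPM in MKN45, 21.3 and 44.1 CPM in HER2R, and 9.9 and 17.1 CPM in CEAR and HLA-C at 87.2 and 181 CPM in MKN45, 52.4 and 83 CPM in HER2R, and 34.3 and 48.1 CPM in CEAR, with joint changes of -1.86 (edgeR adjusted p = 0.0699) and -1.34 (edgeR adjusted p = 0.0593), and B2M, the light chain of class I, changed by -0.40 (edgeR adjusted p = 0.356). HLA-B and HLA-C were not called by this fit, their resistant libraries partly reached the lower MKN45 library in HLA-B, and reads may be split between class I genes. The replicate block, which compares libraries of the same number, did call HLA-B, HLA-C and B2M lower (edgeR adjusted p = 0.000134, 0.000197 and 0.0176). DESeq2 called HLA-B and HLA-C (adjusted p = 0.00102 and 0.00117), as did edgeR lacking MKN45 library 1 (adjusted p = 0.0426 and 0.0387). With the replicate block 11 genes of the list were shared lower and 1 higher, against 9.56% and 7.17% of all tested genes in that fit. By edgeR adjusted p, the removal of 1 library ended the call of TAP1 (0.0877 lacking MKN45 library 1, 0.0854 lacking MKN45 library 2, 0.059 lacking HER2R library 1, 0.0526 lacking CEAR library 1). NLRC5 and TAPBP stayed called in all 6 such fits.

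Of the interferon gamma receptor chains, IFNGR2 fell and IFNGR1 did not pass. IFNGR2 was at 115 and 90.1 CPM in MKN45, 50.3 and 63.7 CPM in HER2R, and 47.1 and 41 CPM in CEAR. Its joint change was -1.03 (SE 0.156, edgeR adjusted p = 0.0179). IFNGR1 was at 17.4 and 19.8 CPM in MKN45, 14.1 and 12.4 CPM in HER2R, and 20.5 and 22.7 CPM in CEAR, -0.14 (edgeR adjusted p = 0.636), and JAK1, JAK2 and IRF1 changed by 0.33 (edgeR adjusted p = 0.238), -0.08 (edgeR adjusted p = 0.844) and -0.74 (edgeR adjusted p = 0.101). IRF1 was called lower with the replicate block (edgeR adjusted p = 0.0216) and by DESeq2 (adjusted p = 0.0355). IRF9, the DNA-binding subunit of the type I interferon factor, fell by 1.35 on the log2 scale (edgeR adjusted p = 0.0426), and STAT5A rose by 1.76 (edgeR adjusted p = 0.0205). On the receptor, JAK and STAT list 1 of 26 genes was shared higher and 2 lower. The calls of IFNGR2, IRF9 and STAT5A were each lost in some leave-out fits.

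Interferon-stimulated genes went both ways. Of 50 tested, 3 were shared higher (BST2, APOL1 and APOL2) and 6 lower (EPSTI1, APOL6, DDX60, PARP12, SAMD9L and WARS), with a median of -0.37. Over the 6 leave-out fits the interferon-stimulated median ran from -0.46 (lacking CEAR library 2) to -0.24 (lacking HER2R library 1), with 1 to 2 shared higher and 1 to 5 shared lower genes. BST2, the tetherin that holds virions at the cell surface, was at 5.7 and 2.32 CPM in MKN45, 42.4 and 49 CPM in HER2R, and 37.9 and 41.4 CPM in CEAR, 3.39 (SE 0.361, edgeR adjusted p = 0.00683). EPSTI1 was at 9.74 and 13.8 CPM in MKN45, 2.17 and 3.85 CPM in HER2R, and 1.64 and 1.62 CPM in CEAR, -2.41 (SE 0.28, edgeR adjusted p = 0.00861). BST2 and EPSTI1 therefore moved in opposite directions, each alike in both lines. APOL6 fell to between 12.1 and 20.8 CPM from 45.2 and 42.1 CPM, -1.41 (SE 0.175, edgeR adjusted p = 0.0105), while the neighbouring relatives APOL1 (2.78) and APOL2 (0.59) rose. The gain of APOL2 was larger in HER2R (edgeR adjusted p = 0.0221 for HER2R against CEAR). Tested line by line, APOL2 passed in HER2R (0.99, edgeR adjusted p = 0.0134) but not in CEAR (0.197, edgeR adjusted p = 0.478). With the replicate block the list counted 5 higher and 11 lower, against 7.17% and 9.56% of all tested genes in that fit. The call of BST2 and EPSTI1 held in every leave-out fit. The edgeR adjusted p passed 0.05 on removal of 1 library for APOL1 (0.0551 lacking MKN45 library 1, 0.0556 lacking MKN45 library 2), APOL6 (0.0509 lacking MKN45 library 1) and SAMD9L (0.0639 lacking MKN45 library 1, 0.053 lacking HER2R library 1, 0.0558 lacking HER2R library 2, 0.0724 lacking CEAR library 1, 0.0828 lacking CEAR library 2). WARS also lost its call in some leave-out fits. No leave-out fit gave a call, by edgeR adjusted p, for APOL2 (0.0849 to 0.199).

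Of 19 checkpoint and suppressive ligands 1 was shared higher, PVRL3 (nectin-3, 2.22), and 1 lower, HHLA2 (-2.06). CD274, which encodes PD-L1, was under 1 CPM in every library and changed by 1.12 (edgeR adjusted p = 0.405). Of 15 adhesion and costimulatory ligands for T and NK cells, ICAM1 (3.10) and CD40 (2.66) were shared higher and NCR3LG1 (-1.60), the NKp30 ligand B7-H6, lower. ICAM1 was at 0.585 and 0.409 CPM in MKN45, 10.9 and 14.2 CPM in HER2R, and 1.18 and 1.84 CPM in CEAR, a gain larger in HER2R (edgeR adjusted p = 0.00649 for HER2R against CEAR). ICAM1 and NFKB2 were the 2 shared genes of 23 NF-kB targets, both higher. The NF-kB list held 0 shared genes lacking MKN45 library 2. The calls of PVRL3, HHLA2, ICAM1, CD40, NCR3LG1 and NFKB2 were each lost in some leave-out fit.

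**Figure D3:**
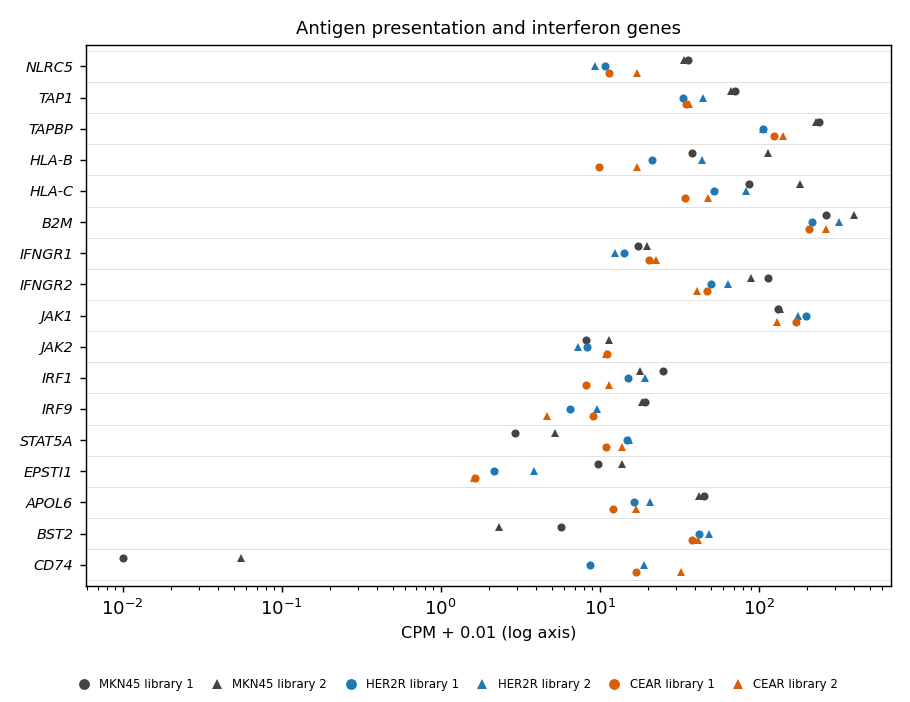
CPM plus 0.01 (log axis) of antigen presentation and interferon genes, 1 point per library, circles for library 1 and triangles for library 2. In NLRC5, TAP1, TAPBP and IFNGR2 the 4 resistant points lie left of both MKN45 points, while in BST2 and CD74 they lie right of them; JAK1, JAK2 and IFNGR1 overlap.

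Some growth factors of the ERBB family were shared higher. Of 11 tested ERBB receptors and ligands 4 were shared higher and 0 lower: EREG, HBEGF and AREG, which are ligands of EGFR, and ERRFI1, an intracellular inhibitor of EGFR that its signalling induces. EREG was at 14.8 and 16.3 CPM in MKN45, 37.9 and 48.3 CPM in HER2R, and 42.4 and 41.5 CPM in CEAR, 1.45 (SE 0.153, edgeR adjusted p = 0.00642), with no call between HER2R and CEAR (edgeR adjusted p = 0.896). HBEGF was at 15.2 and 11.7 CPM in MKN45, 53.4 and 49.5 CPM in HER2R, and 30.8 and 21.7 CPM in CEAR, 1.45 (SE 0.203, edgeR adjusted p = 0.0149), and AREG at 4.41 and 4.78 CPM in MKN45, 22 and 39.5 CPM in HER2R, and 5.95 and 8.9 CPM in CEAR, 1.72 (SE 0.315, edgeR adjusted p = 0.0299). Both gains were larger in HER2R (edgeR adjusted p = 0.0353 and 0.0173 for HER2R against CEAR). Tested in CEAR alone neither passed, with 0.96 for HBEGF and 0.70 for AREG (edgeR adjusted p = 0.0576 and 0.296), whereas EREG passed in each line. The list's median was -0.02, and its other 7 tested genes were not shared. The median of the ERBB list ran from -0.15 (lacking MKN45 library 1) to 0.13 (lacking MKN45 library 2) in such fits, with 1 to 3 shared higher and 0 shared lower genes. Of 29 MAPK output genes 3 were higher and 0 lower, JUN, DUSP4 (0.84) and DUSP1 (0.80), with a median of 0.40. When single libraries were left out, the MAPK median ran from 0.14 (lacking MKN45 library 2) to 0.54 (lacking MKN45 library 1), with 1 to 2 shared higher and 0 to 1 shared lower genes. The call of EREG held in every leave-out fit. With 1 library removed, edgeR no longer called HBEGF (0.083 lacking MKN45 library 2, 0.066 lacking HER2R library 1, 0.0593 lacking HER2R library 2), AREG (0.122 lacking MKN45 library 1, 0.128 lacking MKN45 library 2, 0.0703 lacking HER2R library 2, 0.0516 lacking CEAR library 2) and DUSP4 (0.0666 lacking MKN45 library 1, 0.126 lacking MKN45 library 2, 0.0515 lacking HER2R library 1, 0.0703 lacking HER2R library 2, 0.0551 lacking CEAR library 1). In all 6 leave-out fits the edgeR adjusted p was above 0.05 for DUSP1 (0.0634 to 0.158).

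Of 28 receptor kinase and growth factor genes 4 were shared higher, IGFBP1 (3.98), IGF2 (2.73), EPHA4 (1.22) and IGF1R (0.57), and PDGFA was lower (-0.84). IGFBP1, which binds IGFs in the extracellular space, was at 0.655 and 0.659 CPM in MKN45, 37 and 37.5 CPM in HER2R, and 3.18 and 2.65 CPM in CEAR, 3.98 (SE 0.219, edgeR adjusted p = 0.00132), far higher in HER2R than in CEAR (edgeR adjusted p = 0.000934). MET, a receptor kinase known to be amplified in MKN45 and named here after its values were seen, was at 5478 and 4179 CPM in MKN45, 4554 and 4307 CPM in HER2R, and 4553 and 4229 CPM in CEAR and changed by -0.13 (edgeR adjusted p = 0.806). Among 33 hypoxia and glycolysis genes 4 were higher and 0 lower, EGLN3, P4HA1, BNIP3L and KDM3A, with 12 lying above MKN45 in all resistant libraries and a median of 0.43. Across leave-out fits, the hypoxia median ran from 0.34 (lacking HER2R library 2) to 0.62 (lacking MKN45 library 1), with 1 to 5 shared higher and 0 shared lower genes. EGLN3, a prolyl hydroxylase that HIF induces, was at 4.34 and 3.59 CPM in MKN45, 28.9 and 37.1 CPM in HER2R, and 14.7 and 16 CPM in CEAR, 2.50 (SE 0.199, edgeR adjusted p = 0.00291). With the replicate block 10 genes of the hypoxia list were shared higher, against 7.17% of all tested genes in that fit. The call of IGFBP1 and EGLN3 held in every leave-out fit. By edgeR adjusted p, the removal of 1 library ended the call of P4HA1 (0.0561 lacking MKN45 library 1, 0.105 lacking MKN45 library 2, 0.0603 lacking HER2R library 2), BNIP3L (0.0893 lacking MKN45 library 1, 0.125 lacking MKN45 library 2, 0.0629 lacking HER2R library 2, 0.0516 lacking CEAR library 1) and KDM3A (0.102 lacking MKN45 library 1, 0.189 lacking MKN45 library 2, 0.129 lacking HER2R library 1, 0.112 lacking HER2R library 2, 0.085 lacking CEAR library 1). Removal of any library at all raised the edgeR adjusted p above 0.05 for IGF2 (0.0502 to 0.134), EPHA4 (0.0652 to 0.156), IGF1R (0.0708 to 0.167) and PDGFA (0.0862 to 0.175).

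Retinoid enzymes were among the gains in which HER2R and CEAR were not called different. ALDH1A3, which makes retinoic acid, was at 3.28 and 4.98 CPM in MKN45, 33.4 and 36.6 CPM in HER2R, and 30.5 and 35.8 CPM in CEAR, 3.05 (SE 0.225, edgeR adjusted p = 0.0024), and CYP26B1, which degrades it, at 2.36 and 2.21 CPM in MKN45, 14 and 11.5 CPM in HER2R, and 13.2 and 9.15 CPM in CEAR, 2.38 (SE 0.254, edgeR adjusted p = 0.00684). RDH10, which makes retinaldehyde, rose by 0.57 (edgeR adjusted p = 0.0443). ALDH1A1, the related dehydrogenase, went the other way, at 76.8 and 159.6 CPM in MKN45, 0 and 0.0255 CPM in HER2R, and 3.2 and 8.02 CPM in CEAR, -8.64 (SE 0.598, edgeR adjusted p = 0.00223), and further in HER2R (edgeR adjusted p = 0.012). Of 19 retinoid genes 3 were higher and 1 lower, with a median of -0.001. With 1 library left out, the median of the retinoid list ran from -0.17 (lacking MKN45 library 1) to 0.37 (lacking MKN45 library 2), with 2 to 3 shared higher and 1 shared lower genes. ALDH1A3, CYP26B1 and ALDH1A1 held up to the loss of any single library. No leave-out fit gave a call, by edgeR adjusted p, for RDH10 (0.0921 to 0.178).

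Some detoxifying enzymes fell. Of 35 tested genes of glutathione transferases and related enzymes, 7 were shared lower and 1, ALDH1A3, higher, with a median of -0.53. Over the 6 leave-out fits the detoxification median ran from -0.75 (lacking MKN45 library 1) to -0.026 (lacking MKN45 library 2), with 1 shared higher and 3 to 6 shared lower genes. ALDH3A1 was at 198 and 227 CPM in MKN45, 37.1 and 62.9 CPM in HER2R, and 46 and 67.4 CPM in CEAR, -1.99 (SE 0.237, edgeR adjusted p = 0.00885). MGST1 and MGST2, microsomal glutathione transferases, fell by 1.05 and 1.29 on the log2 scale (edgeR adjusted p = 0.0196 and 0.00743). Of 28 antioxidant genes of the NRF2 list GPX4 was higher (0.60) and GPX2 lower. ABCC1, an efflux pump, was the one lower gene of 12 ABC transporters (-0.64). Tested line by line, ABCC1 passed in HER2R (-0.92, edgeR adjusted p = 0.0208) but not in CEAR (-0.36, edgeR adjusted p = 0.233). Among 31 sterol and fatty acid genes 2 were lower, FADS2 and ACSS2, with a median of -0.69. The median of the sterol and fatty acid list ran from -1.28 (lacking MKN45 library 2) to 0.32 (lacking MKN45 library 1) in such fits, with 0 shared higher and 0 to 7 shared lower genes. The direction of that median thus depended on MKN45 library 1. FADS2 was at 274 and 31.3 CPM in MKN45, 21.9 and 10.1 CPM in HER2R, and 14.8 and 6.79 CPM in CEAR, with MKN45 library 1 far above the rest. Its change was -3.54 (edgeR adjusted p = 0.0468), and -1.25 at its smallest when a library was left out. The calls of ALDH3A1 and MGST2 held in every leave-out fit. The edgeR adjusted p passed 0.05 on removal of 1 library for MGST1 (0.058 lacking MKN45 library 1, 0.0881 lacking HER2R library 1, 0.0812 lacking HER2R library 2, 0.0511 lacking CEAR library 1), FADS2 (0.238 lacking MKN45 library 1, 0.137 lacking HER2R library 1, 0.157 lacking HER2R library 2, 0.0817 lacking CEAR library 1, 0.099 lacking CEAR library 2) and ACSS2 (0.155 lacking MKN45 library 1, 0.117 lacking HER2R library 1, 0.125 lacking HER2R library 2, 0.0898 lacking CEAR library 1, 0.0642 lacking CEAR library 2). No leave-out fit of edgeR called GPX4 (0.0714 to 0.131) and ABCC1 (0.0886 to 0.176).

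Some epithelial and gastrointestinal genes fell. Of 18 tested epithelial markers 0 were shared higher and 4 lower, CDH17, CLDN3, ST14 and VIL1, with a median of -0.30. When single libraries were left out, the epithelial median ran from -0.48 (lacking MKN45 library 1) to -0.13 (lacking MKN45 library 2), with 0 shared higher and 1 to 3 shared lower genes. VIL1, the brush-border protein villin, was at 205 and 192 CPM in MKN45, 108 and 66.9 CPM in HER2R, and 134 and 113 CPM in CEAR, -0.93 (SE 0.195, edgeR adjusted p = 0.0418). CLDN3, a tight junction claudin and the one shared gene of 17 on that list, was at 67.1 and 61.6 CPM in MKN45, 45.5 and 39.9 CPM in HER2R, and 24.1 and 20.8 CPM in CEAR, -1.06 (SE 0.124, edgeR adjusted p = 0.00872). Of 29 differentiation genes of stomach and intestine 3 were lower, among them the transcription factors HNF4A (-0.56) and KLF5 (-0.99), with a median of -0.46. Across leave-out fits, the differentiation median ran from -0.71 (lacking MKN45 library 1) to -0.073 (lacking MKN45 library 2), with 0 to 1 shared higher and 0 to 2 shared lower genes. None of 12 keratins and 14 integrins was shared. The calls of CLDN3, VIL1 and KLF5 were each lost in some leave-out fit. In all 6 leave-out fits the edgeR adjusted p was above 0.05 for ST14 (0.145 to 0.176) and HNF4A (0.0822 to 0.149).

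Mesenchymal genes did not move as a group. Of 13 tested 4 were shared higher, VIM, ZEB1, FOXC2 and CYR61, and 2 lower, ACTA2 and CTGF, with a median of -0.19. With 1 library left out, the median of the mesenchymal list ran from -0.15 (lacking HER2R library 1) to 0.42 (lacking MKN45 library 1), with 1 to 3 shared higher and 0 to 2 shared lower genes. It was 0.67 with all resistant libraries as 1 group, so its sign depended on the fit. VIM, the intermediate filament of mesenchymal cells, was at 0.0886 and 0.091 CPM in MKN45, 8.28 and 3.95 CPM in HER2R, and 0.964 and 0.337 CPM in CEAR, so it remained under 1 CPM in CEAR. FOXC2, a forkhead factor, was at 8.4 and 7.21 CPM in MKN45, 34.2 and 38.1 CPM in HER2R, and 17.7 and 16.6 CPM in CEAR, 1.67 (SE 0.156, edgeR adjusted p = 0.00438). CYR61 and CTGF, both targets of YAP and TEAD, moved in opposite directions (1.82 and -2.85). COL12A1 and COL16A1 (2.43) were the 2 higher genes of 22 collagens and laminins, where 0 were lower. FOXC2 held up to the loss of any single library. With 1 library removed, edgeR no longer called VIM (0.129 lacking MKN45 library 1, 0.132 lacking MKN45 library 2, 0.0659 lacking HER2R library 1, 0.0813 lacking CEAR library 1), CYR61 (0.0726 lacking MKN45 library 1, 0.161 lacking MKN45 library 2, 0.106 lacking HER2R library 1, 0.0703 lacking HER2R library 2, 0.0594 lacking CEAR library 1) and CTGF (0.105 lacking MKN45 library 1, 0.108 lacking HER2R library 1, 0.088 lacking HER2R library 2). It was likewise so for ACTA2 (0.0635 lacking MKN45 library 1, 0.151 lacking MKN45 library 2, 0.0998 lacking HER2R library 1, 0.108 lacking HER2R library 2, 0.0652 lacking CEAR library 1). Removal of any library at all raised the edgeR adjusted p above 0.05 for ZEB1 (0.0726 to 0.147) and COL16A1 (0.0571 to 0.153).

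WNT ligands split. WNT16, WNT5B (-3.33) and WNT10A (-2.79) were lower along with LEF1, while WNT7A (3.38), WNT7B (2.27) and the receptor FZD6 (0.71) were higher, 4 lower and 3 higher of 35. WNT7B was at 10.0 and 12.7 CPM in MKN45, 149 and 104 CPM in HER2R, and 28.8 and 18.1 CPM in CEAR, 2.27 (SE 0.272, edgeR adjusted p = 0.00908). SMAD3, a mediator of TGF-beta signals, rose by 0.76 and with SOSTDC1 made up the 2 shared genes of 33 BMP and TGF-beta genes. Of 19 NOTCH genes HEY1 (1.80) and HEYL (0.91), both targets, were higher and LFNG (-1.07), which glycosylates the receptor, lower. Among 18 neuronal genes NRP1 (1.42), ROBO1 (1.22) and SEMA3A (1.11) were higher, and GAP43 and SEMA3C (-0.80) lower. The calls of WNT5B and NRP1 held in every leave-out fit. By edgeR adjusted p, the removal of 1 library ended the call of WNT7B (0.0519 lacking MKN45 library 1), WNT10A (0.165 lacking MKN45 library 1, 0.0719 lacking MKN45 library 2, 0.112 lacking HER2R library 1, 0.125 lacking HER2R library 2, 0.0751 lacking CEAR library 2) and WNT7A (0.129 lacking MKN45 library 1, 0.115 lacking MKN45 library 2, 0.0729 lacking HER2R library 1, 0.0791 lacking HER2R library 2, 0.0776 lacking CEAR library 2). SMAD3, LFNG, ROBO1 and SEMA3C also each lost their call in some leave-out fits. No leave-out fit gave a call, by edgeR adjusted p, for FZD6 (0.0676 to 0.166), HEY1 (0.0718 to 0.131), HEYL (0.0756 to 0.172) and SEMA3A (0.0753 to 0.203).

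Some targets of p53 were shared lower. Of 28 tested 0 were shared higher and 7 lower, with 11 below MKN45 in all resistant libraries and a median of -0.40. Over the 6 leave-out fits the p53 median ran from -0.54 (lacking HER2R library 1) to -0.28 (lacking HER2R library 2), with 0 shared higher and 1 to 3 shared lower genes. PLK2, named after its values were seen, was called higher in the joint contrast at 0.76 (edgeR adjusted p = 0.0481) but is not shared, since it was 2.13 in HER2R and -0.62 in CEAR. SPATA18, which acts in mitochondrial quality control, was at 10.8 and 11.3 CPM in MKN45, 1.86 and 0.714 CPM in HER2R, and 0.915 and 0.494 CPM in CEAR, -3.54 (SE 0.349, edgeR adjusted p = 0.00525). CDKN1A, the cell cycle inhibitor p21, was at 184 and 237 CPM in MKN45, 162 and 148 CPM in HER2R, and 55.7 and 68.4 CPM in CEAR, -1.10 (SE 0.147, edgeR adjusted p = 0.0124), with the larger loss in CEAR (edgeR adjusted p = 0.0111 for HER2R against CEAR). ZMAT3 fell by 0.97 and BAX, a pore former of apoptosis, by 0.54 on the log2 scale (edgeR adjusted p = 0.0263 and 0.0418). Tested line by line, CDKN1A did not pass in HER2R (edgeR adjusted p = 0.155) and BAX passed in neither (0.0647 in HER2R and 0.0537 in CEAR). Of 37 death receptor and apoptosis genes BAX, XIAP (-0.60) and TNFRSF10C (-1.51) were lower, the last a decoy receptor for TRAIL. Among 11 cell cycle inhibitors and D cyclins 4 were lower, CCND2, CDKN1A, RB1 (-0.64) and CDKN2C (-0.86), and CDKN1C (1.21) was higher. CCND2 was at 62.5 and 65.5 CPM in MKN45, 27.8 and 30.1 CPM in HER2R, and 15.6 and 17.2 CPM in CEAR, -1.56 (SE 0.113, edgeR adjusted p = 0.00233). None of 35 replication genes and none of 32 mitotic genes was shared in either direction by edgeR. With the replicate block 3 of the 35 replication genes were shared higher, close to the 7.17% of all tested genes in that fit. The call of SPATA18 and CCND2 held in every leave-out fit. The calls of CDKN1A, ZMAT3 and TNFRSF10C were each lost in some leave-out fits. No leave-out fit of edgeR called BAX (0.0742 to 0.171), XIAP (0.0708 to 0.132), RB1 (0.0539 to 0.114), CDKN2C (0.0813 to 0.162) and CDKN1C (0.0682 to 0.142).

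SLFN11, which blocks stressed replication forks and whose loss is known from resistance to DNA-damaging drugs, was at 57.1 and 42.9 CPM in MKN45, 0.484 and 0.434 CPM in HER2R, and 7.3 and 6.34 CPM in CEAR, -4.82 (SE 0.192, edgeR adjusted p = 0.000372). Both lines were low, HER2R lower still (edgeR adjusted p = 0.00233). SLFN13 (-5.15), under 1 CPM in every library, was the other shared gene of 4 Schlafen genes tested. TERC, the RNA template of telomerase, was at 19.4 and 24.2 CPM in MKN45, 117 and 122 CPM in HER2R, and 70.7 and 104 CPM in CEAR, 2.23 (SE 0.205, edgeR adjusted p = 0.00427); it is a shared gene named here after its values were seen. Zinc finger genes with ZNF symbols counted 30 shared lower and 5 higher of 389, against the background of 4.01% and 2.43%, with a median of -0.004. The median of the zinc finger list ran from -0.03 (lacking MKN45 library 1) to 0.0074 (lacking MKN45 library 2) in such fits, with 0 to 1 shared higher and 12 to 21 shared lower genes. ZNF91, which silences SVA retrotransposons, was at 16.6 and 26.9 CPM in MKN45, 4.99 and 7.98 CPM in HER2R, and 0 and 0.0225 CPM in CEAR, -6.15 (SE 0.46, edgeR adjusted p = 0.00233), and ZNF681 at 8.02 and 7.98 CPM in MKN45, 0.637 and 1.2 CPM in HER2R, and 0.0241 and 0.0225 CPM in CEAR, -5.69 (SE 0.333, edgeR adjusted p = 0.000372). Their losses were larger in CEAR (edgeR adjusted p = 0.00391 and 0.00894). These genes have near copies, between which counting could split reads. SLFN11, TERC, ZNF91 and ZNF681 held up to the loss of any single library. In all 6 leave-out fits the edgeR adjusted p was above 0.05 for SLFN13 (0.0566 to 0.12).

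Other lists held few shared genes. Of 29 serpins and proteases 4 were higher, SERPINA1 (4.69), PLAU (2.54), KLK6 (2.04) and MMP14 (0.60), and 3 lower, SERPINB1 (-0.95), SERPINB6 (-0.76) and TMPRSS4 (-1.004). SERPINA1 was at 0.567 and 1.05 CPM in MKN45, 1.83 and 3.39 CPM in HER2R, and 118 and 199 CPM in CEAR, so nearly all of its gain was in CEAR (edgeR adjusted p = 0.00229 for HER2R against CEAR). Solute carriers counted 14 lower and 3 higher of 246, clustered histone genes 2 higher of 58, cytosolic ribosomal proteins 2 lower of 75, HOX genes 2 lower of 32, and S100 and annexin genes 1 higher and 2 lower of 22. Glycosyltransferases had 1 lower of 33, chromatin silencing genes 1 higher of 28, LINC transcripts 1 higher and 3 lower of 121, cancer-testis genes 2 lower of 5, and protocadherins 1 lower of 1. GPI anchor genes (29), metallothioneins (5) and the most abundant noncoding RNAs (10) had none. The call of SERPINA1 held in every leave-out fit. The calls of PLAU, KLK6, SERPINB1, SERPINB6 and TMPRSS4 were each lost in some leave-out fits. Removal of any library at all raised the edgeR adjusted p above 0.05 for MMP14 (0.0819 to 0.168).

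**Figure D4:**
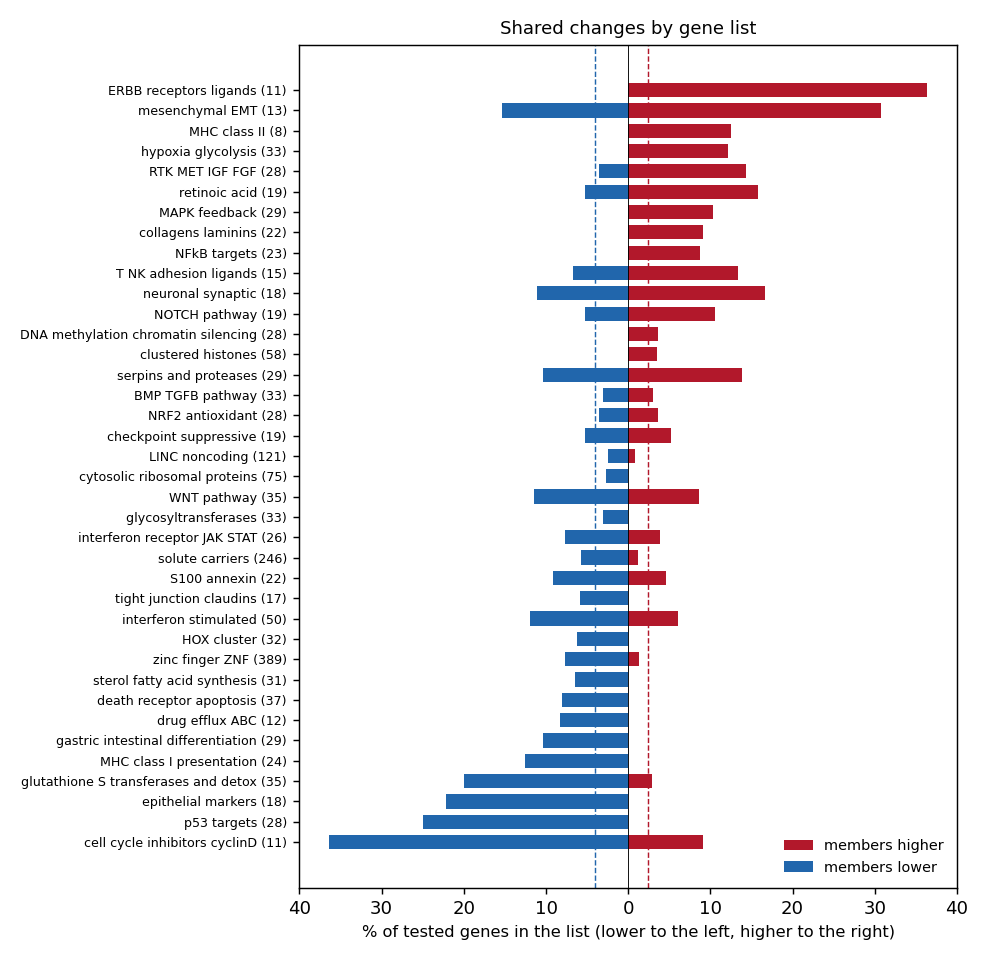
Percentage of the tested genes of each list (number tested in parentheses) that were shared higher (red, right) or shared lower (blue, left), for lists with 8 or more tested genes and at least 1 shared gene, with dashed lines at the share over all tested genes, 2.43% and 4.01%. The ERBB list reaches 4 of 11 higher and the p53 list 7 of 28 lower; lists overlap in members and short lists move in large steps.

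Shared losses were uneven over the genome. On chromosome 13, 44 of 241 tested genes (18.3%) were shared lower, on chromosome 7 it was 101 of 708 (14.3%), on chromosome 12 it was 61 of 738 (8.27%) and on X 33 of 441 (7.48%), against 4.01% of all tested genes. Shared gains made up 6.81% of genes on chromosome 18 and 5.92% on chromosome 15, against 2.43%. Median levels of these chromosomes moved the same way. Centred on the library's own median and using log2(CPM + 0.5) of genes at 1 CPM or more on average, chromosome 13 stood at 0.31 and 0.29 in MKN45 and between -0.16 and -0.11 in the resistant libraries, and chromosome 7 at 0.18 and 0.19 against -0.13 to -0.06. Chromosomes 15 and 18 went up by 0.21 and 0.22 on average with no overlap. Chromosome 16 went opposite ways, to -0.33 and -0.37 in HER2R and 0.29 and 0.29 in CEAR.

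Windows of 10 Mb with at least 20 such genes narrowed this down. Of 224 windows, 11 had a median below -0.3 in both lines and 2 a median above 0.3. The lower ones lay on chromosomes 7, 12 and 13, the higher ones on 15 and 18. On X, the windows starting at 100000001 and 110000001 had medians of -0.07 and -0.17 in HER2R against -1.04 and -1.03 in CEAR. The lower windows held 116 shared lower genes among 456, a high share that follows from choosing the windows by the same fold changes. Within them, the first 10 Mb of chromosome 12 had a median of -0.57 with 21 of 76 genes shared lower, CCND2 being there, and the window from 110000001 to 120000000 on chromosome 13 had -0.61 with 11 of 26, LAMP1 among them. Not all genes of chromosome 7 fell. CAV1 and CAV2, caveolin genes next to MET that were also picked after their values were seen, rose by 2.23 and 0.97 (edgeR adjusted p = 0.00802 and 0.00987), and CAV1 was at 17.4 and 28.7 CPM in MKN45, 158 and 174 CPM in HER2R, and 59.4 and 80.1 CPM in CEAR. The call of CAV1 held in every leave-out fit. With 1 library removed, edgeR no longer called CAV2 (0.0562 lacking MKN45 library 1, 0.0513 lacking MKN45 library 2). Runs of neighbouring shared genes included ZNF93, ZNF682 and ZNF90, then ZNF91, ZNF675 and ZNF681, and ZNF28, ZNF468, ZNF320 and ZNF888 on chromosome 19, all lower. DNA copy number was not measured, and its part in these values was not tested.

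**Figure D5:**
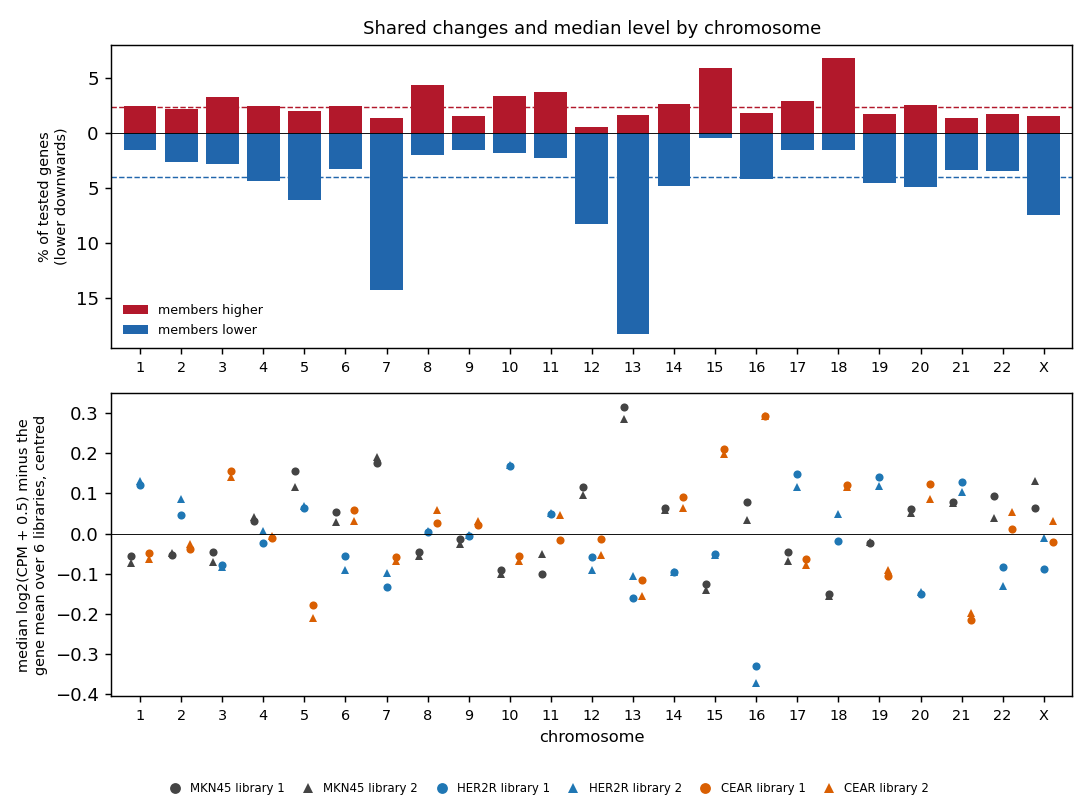
Top: percentage of the tested genes of each chromosome that were shared higher (red) or shared lower (blue), with dashed lines at 2.43% and 4.01% for all tested genes. Bottom: median over genes of log2(CPM + 0.5) minus the gene's mean over the 6 libraries, centred on each library's median, 1 point per library; on chromosomes 7 and 13 the MKN45 points lie above all 4 resistant points and on 15 and 18 below them.

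At the threshold itself the last shared gene was GREB1L at 0.65 on the higher side (edgeR adjusted p = 0.0499) and SESN2 at -0.58 on the lower (0.0499). The first genes that met the other conditions of a shared gene but were not called were LCN2 at 3.25 (0.0503) and SH3BP1 at -0.63 (0.0503).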

How the data were processed

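RNA of 3 cultured lines was sequenced, with 2 libraries each, from stranded total RNA after ribosomal depletion, per the labels' protocols. The authors deposited raw read counts by gene symbol, with totals of 39657353 to 57964246 per library. GRCh38 and limma are named with no role or version, per the submitters' processing notes, while the aligner was not given in the sources used here, nor were the annotation and strand setting. Low counts were removed with filterByExpr by line, which took out 14786 symbols. Libraries were scaled by TMM factors, and levels in CPM use these scaled totals, where 1 count is 0.0177 to 0.0255 CPM. A quasi-likelihood model of edgeR 4.0.16 in R 4.3.3 with a term per line had 3 residual and 3.51 prior degrees of freedom, and Benjamini-Hochberg adjustment ran over every tested gene. The SE of a log2 fold change is its size over the square root of F. The first fit used the legacy form of the quasi-likelihood method. The form reported was taken after its counts had been seen, and both are given in the closing section. Counting intervals are at 95% and cover counting error only.

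The method was tested on simulated data. It recovered the sizes of known changes. Where each gene kept its own estimated spread, however, the share of false calls was above the nominal level. The called genes, and the shared genes drawn from them, may therefore hold more false calls than the threshold implies. Calls near the threshold deserve the most caution. Genes were named by rule: 15 per direction with the largest change in the line that moved least, 6 of highest level, 6 of largest joint change, up to 4 per gene list and direction, and 15 fixed genes. Some genes that the rule names are not reported here. The members and the 52 gene lists were chosen with earlier results of these data known. Positions come from GENCODE 29 on GRCh38 for 13264 of the 14115 tested genes placed, and promoters from RefSeq on GRCh38.p14. Alternatives were RLE size factors, library size alone, 2 other filters, DESeq2 1.42.0, voom of limma 3.58.1, 2 groups, a test against a fold of 1.5, the replicate block and leaving out each library. The legacy method and leaving out 5 abundant noncoding RNAs were added after seeing the data. Over all tested genes, the difference between library 2 and library 1 correlated between lines (0.47, 0.65 and 0.49), but the labels do not say what the number means.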

Additional observations from a re-analysis of the deposited data

Results flagged for a closer look

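The effects of the 2 resistant lines differed from each other, by edgeR's test of HER2R against CEAR, in 16 of the genes that were named for their size, level or role. Values are log2 differences of HER2R minus CEAR. ALDH1A1 (-8.50, edgeR adjusted p = 0.0120) and SLFN11 (-3.88, edgeR adjusted p = 0.00233) were lost further in HER2R. The gains of FGL2 (-2.65), FAM131A (-1.21), HTRA3 (-1.09) and DTX3 (-1.05) were larger in CEAR, at edgeR adjusted p = 0.0119, 0.0422, 0.0478 and 0.0353. Larger in HER2R were the gains of DOC2B (4.20), COL12A1 (3.16), AKAP12 (2.54), PRSS23 (1.27), NAGS (1.13) and PLOD2 (0.90), at edgeR adjusted p = 0.0155, 0.0151, 0.00788, 0.0152, 0.0261 and 0.0399. ZNF462 (6.90, edgeR adjusted p = 0.00295) was lost further in CEAR. The differences of ALDH1A1 and ZNF462 rest on 1 and 2 counts in the lower line, so their sizes are uncertain. Not shared, but different between the lines, were CEACAM5 (7.51, edgeR adjusted p = 0.0125), EPCAM (0.79, edgeR adjusted p = 0.0327) and IFNGR1 (-0.70, edgeR adjusted p = 0.0449). With 2 libraries per line, no group was large enough to look for a single outlying library.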

How the results depend on the processing

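No shared gene named in the text changed direction under any alternative run, but the number called depended strongly on the setting. Counts are given as higher and lower. The called genes (401 and 666) became 1738 and 2315 with the replicate block, 952 and 1261 by DESeq2, 111 and 150 against a fold of 1.5, and 35 and 55 with 2 groups, and ranged from 86 to 219 and from 126 to 335 when 1 library was left out. The shared genes (363 and 600) became 1072 and 1430, 756 and 1030, 106 and 140, and 35 and 55 in the same order, and 85 to 214 and 119 to 317 without a library. Genes called in each line (48 and 37) became 359 and 528 with the replicate block, 230 and 245 by DESeq2, 28 and 24 against a fold of 1.5 and 22 and 22 by limma-voom, and 5 to 26 and 3 to 19 without a library. Shared genes that differ between HER2R and CEAR (295) became 897 with the replicate block, 535 by DESeq2, 54 against a fold of 1.5, and 25 to 121 without a library. The legacy quasi-likelihood method gave 388 and 611 called, 352 and 545 shared and 281 differing. Other alternatives stayed within 1.5 times of these counts. The joint log2 fold change of EPCAM (0.08) was -0.051 without MKN45 replicate 1 and 0.23 without MKN45 replicate 2. That of JAK2 (-0.08) was -0.30 without MKN45 replicate 1 and 0.17 without MKN45 replicate 2. Fewer libraries leave fewer degrees of freedom, and 2 groups count the difference between the lines as spread. With 2 libraries per line, small shared changes were not detectable, and a gene outside the counts is not shown to be unchanged.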
